A study of Mus musculus with 16 samples.

Results

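Lung endothelial cells taken after removal of a primary tumour (d22) were compared with those of mice that never carried one (d0). The comparison rests on 8 of the 16 libraries of the series, 4 at d22 and 4 at d0, chosen by their labelled time point, and on every entry of the expression table. All mice were female C57BL/6N. The d0 mice were wild-type animals without a tumour. The d22 mice had received Lewis lung carcinoma cells, a mouse lung cancer line that spreads to the lung, under the skin, and the resulting tumour had been resected. The other libraries came from mice that bore the primary tumour (d15, 4 libraries) or metastases (d36, 4 libraries), and they are used here only to place the d22 values in time. Implantation, tumour growth, surgery and time all separate d22 from d0, and they cannot be told apart in this design. Neither an operated group without a tumour nor the hour of collection is given in the sources used here.

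The endothelium of the lung is a layer of specialised cells. Aerocytes are large capillary cells spread over the gas-exchange surface, and general capillary cells are smaller and act as the progenitors of capillaries. Venous cells carry adhesion molecules through which leukocytes, and also tumour cells, leave the blood. Endothelial cells set vascular tone and permeability through peptide receptors, and in many tissues their genes follow the time of day.

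Endothelial cells had been sorted by flow cytometry, and approximate depth ran from 95.3 to 112.7 M reads per library at d0 (M, mega) and from 105.7 to 110.3 M reads at d22. Levels are RPKM, reads scaled by transcript length and by library depth. All 16 pan-endothelial genes checked were detected and tested, with Pecam1 at 645 to 731 RPKM at d0 and 589 to 805 RPKM at d22 and Cdh5 at 343 to 382 RPKM at d0 and 277 to 385 RPKM at d22, so the endothelial label held. Of the 16, 1 rose (Ramp2) and 2 fell (Robo4 and Icam2). Correlations across genes ran from 0.9803 to 0.9901 among the d0 libraries, from 0.9777 to 0.9892 among the d22 libraries and from 0.9552 to 0.9777 between the groups. RNA of other lung cells was present at both times. The summed level of the epithelial genes checked was 854 to 2051 RPKM at d0 and 1209 to 1759 RPKM at d22, mostly from the secretory gene Scgb1a1 and the surfactant gene Sftpc, and 1 of the 18 tested rose (Bpifa1) and 1 fell (Hopx). Cardiomyocyte genes summed to 14.6 to 47.1 RPKM at d0 and 8.81 to 15.99 RPKM at d22, and 2 of 7 tested fell (Myl7 and Sln). Leukocyte genes of all lineages summed to 60.1 to 71.3 RPKM at d0 and 55.1 to 68.4 RPKM at d22 with 0 of 7 called, and neutrophil genes summed to at most 1.06 RPKM. Of 5 fibroblast genes tested 1 fell (Gpx3), and 0 of 5 mural genes were called. Of the leukocyte and mural genes, 0 and 1 had an unadjusted p under 0.05 in this limma fit. The part of these other cells in the results was not tested.

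Of 14303 entries tested, 1157 (8.09%) were higher and 1016 (7.1%) were lower at d22 than at d0. A call means an adjusted p under 0.05 in a limma fit of log2(RPKM + 1), and fold changes are on that log2 scale unless stated, which understates the change of genes near or under 1 RPKM. The change reached 2-fold in 65 of the rises and 35 of the falls, and the median over all entries was 0.02. With each library centred on its median, 898 rose and 1362 fell, so the share of rises among calls was 39.7% in place of 53.2%. Leaving out 1 library at a time left 593 rises and 379 falls that were called in all 8 fits. Rises dropped to 767 without d0 replicate 1, to 720 without d0 replicate 4 and to 731 without d22 replicate 6. Falls dropped to 575, 614 and 603 without d0 replicates 1, 3 and 4, and to 446 without d22 replicate 6. The main genes named below were picked from calls that held in all 8 fits and did not overlap between the groups. Their separation therefore follows from how they were chosen and is no further result. Lrg1 and other list members were not picked in this way.

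Calls followed transcript length. Across entries with an annotated length, the log2 fold change correlated with length at 0.313 (Spearman) and with GC content at -0.345. Genes were split into 10 equal classes by length. In the shortest class (median 617.5 bases) 4.34% rose and 17.7% fell, and in the longest (median 5849 bases) 18.8% rose and 2.22% fell. The trend separated the groups library by library. The median deviation of the shortest class from the mean of the 8 libraries was 0.017 to 0.129 in the d0 libraries and -0.123 to -0.023 in the d22 libraries, and that of the longest class was -0.151 to -0.047 at d0 and 0.055 to 0.111 at d22. The lowest value of the shortest class was that of d22 replicate 6. The length trend and the group therefore cannot be told apart. When the trend with length and GC content was removed from each library, 549 of 9917 entries with an annotated length rose (5.54%) and 528 fell (5.32%). With the trend kept, the same entries gave 876 rises and 886 falls. Counts with the trend removed are given beside the gene groups below. Of the lists above, the pan-endothelial genes then gave 1 rise and 2 falls, and the epithelial genes 1 rise and 1 fall. The cardiomyocyte and fibroblast lists gave 0 falls, in place of 2 and 1.

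**Figure D1:**
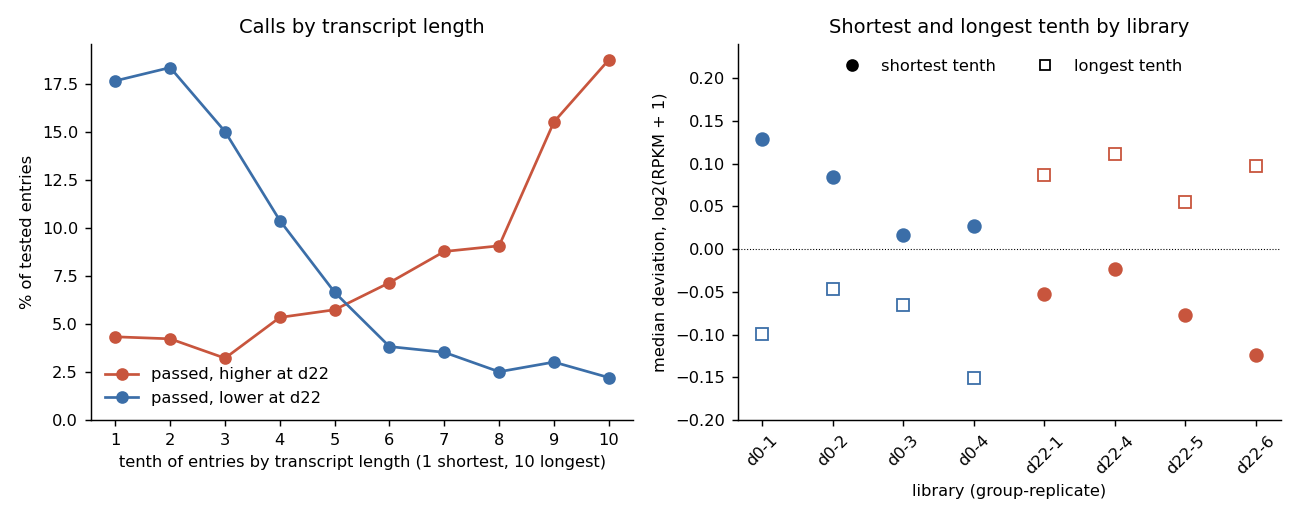
Calls and library deviations by transcript length. The left panel plots the percentage of tested genes called higher or lower at d22 in each of 10 classes of transcript length, and the right panel plots the median deviation of log2(RPKM + 1) of the shortest and longest class in each d0 and d22 library; falls go from 17.7% to 2.22% and rises from 4.34% to 18.8% along the length axis, and the 2 groups of libraries do not overlap in either class.

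Genes of aerocytes fell together. Of 12 tested genes of this list, 11 fell and 0 rose, with a median log2 fold change of -1.26, against a share of falls over all entries of 7.1%. The summed level of the 13 listed genes was 440 to 774 RPKM at d0 and 219 to 313 RPKM at d22. Car4, a carbonic anhydrase anchored on the capillary surface (GRCm38 chromosome 11, 84957786 to 84966044), stood at 68.7, 85.8, 74.5 and 56.1 RPKM at d0 and 30.2, 22.9, 31.6 and 17.9 RPKM at d22. Every d22 library was below every d0 library, and the log2 fold change came to -1.46 ± 0.27 (SE, adjusted p = 0.00277). Ednrb, the endothelin B receptor and a defining gene of these cells, stood at 68.3, 127, 86.6 and 68.2 RPKM at d0 and 46.9, 33.8, 30.9 and 21.4 RPKM at d22, and it fell by 1.37 on the log2 scale (SE 0.30, adjusted p = 0.00708). Apln, the peptide ligand apelin, which aerocytes make, stood at 18.5, 31.8, 19.9 and 13.03 RPKM at d0 and 9.16, 6.36, 6.23 and 3.78 RPKM at d22. Its log2 fold change was -1.54 ± 0.35 (SE, adjusted p = 0.00852). In each of these 3 genes d0 replicate 2 was the highest and d22 replicate 6 the lowest of the 8 libraries. In a bulk sample, fewer aerocytes and less of this RNA per aerocyte cannot be told apart.

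Fibin, which encodes a secreted factor, had the largest fall of the list. It stood at 67.3, 122, 86.1 and 62.6 RPKM at d0 and 35.98, 25.6, 25.4 and 16.2 RPKM at d22, a change of -1.68 ± 0.33 (SE, adjusted p = 0.00363). Chst1, a sulfotransferase of keratan sulfate, stood at 13.3, 19.7, 17.04 and 10.1 RPKM at d0 and 5.28, 4.85, 3.96 and 3.83 RPKM at d22, and its change was -1.52 ± 0.25 (SE, adjusted p = 0.00151). Igfbp7, a secreted binder of insulin-like growth factors, stood at 73.1, 128, 97.7 and 55.4 RPKM at d0 and 32.4, 33.7, 26.5 and 26.3 RPKM at d22, a change of -1.48 ± 0.34 (SE, adjusted p = 0.00919). In these 3 genes too the groups did not overlap, as their selection required, and d0 replicate 2 was the highest library. Cdkn2b, a cell cycle inhibitor, fell by 1.06 on the log2 scale (SE 0.26, adjusted p = 0.0129) and the transcription factor Tbx2 by 1.15 on the log2 scale (SE 0.30, adjusted p = 0.0168). Prx, Sirpa and Rprml fell by smaller amounts, with log2 fold changes of -0.57, -0.75 and -0.90, and Rprml overlapped between the groups. Kitl, the ligand of the KIT receptor, did not pass, at 23.01, 33.4, 28.98 and 21.9 RPKM at d0 and 28.98, 27.3, 27.8 and 25.2 RPKM at d22, with a log2 fold change of 0.045 and a 95% interval of ± 0.33. A further gene of the list, Emp2, was under the filter for testing, at 0.791, 1.51, 1.11 and 0.673 RPKM at d0 and 0.477, 0.286, 0.461 and 0.286 RPKM at d22. With the length and GC trend removed, 9 of 12 fell, and 7 of the 11 falls passed in all 8 fits that left out a library. Without d0 replicate 2 the count was 7.

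Part of the venous genes rose. Of 12 tested, 6 rose and 0 fell, with a median of 0.88, and the share of rises over all entries was 8.09%. Vcam1, an adhesion molecule to which leukocytes bind (GRCm38 chromosome 3, 116109949 to 116129688), stood at 4.52, 8.52, 9.38 and 7.91 RPKM at d0 and 33.8, 31.98, 16.4 and 23.6 RPKM at d22. The lowest d22 library was above the highest d0 library, and the log2 fold change was 1.67 ± 0.35 (SE, adjusted p = 0.00526). Slc6a2, the noradrenaline transporter, stood at 15.5, 34.9, 43.99 and 25.9 RPKM at d0 and 84.9, 102, 68.3 and 94.9 RPKM at d22, with a change of 1.59 ± 0.37 (SE, adjusted p = 0.00908). Bst1, a cell-surface enzyme that marks veins, stood at 4.24, 5.64, 6.40 and 5.58 RPKM at d0 and 13.6, 17.4, 11.1 and 13.1 RPKM at d22, with a change of 1.19 ± 0.23 (SE, adjusted p = 0.00378). Nr2f2, a nuclear receptor needed for vein identity, stood at 1.11, 2.49, 1.97 and 1.72 RPKM at d0 and 5.18, 6.60, 3.36 and 4.30 RPKM at d22, with a change of 1.05 ± 0.20 (SE, adjusted p = 0.00296). For all 4 genes the groups were separate, as their selection required, and d0 replicate 1 was the lowest library. The highest was d22 replicate 1 for Vcam1 and d22 replicate 4 for the other 3.

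The serine protease gene Prss23 rose by 0.96 ± 0.25 (SE, adjusted p = 0.0173) and Vwf, the clotting factor stored by endothelial cells, by 0.67 ± 0.22 (SE, adjusted p = 0.0463). The other 6 venous genes did not pass. Darc, a chemokine-binding receptor of venules now named Ackr1, stood at 0.206, 0.134, 0.253 and 0.137 RPKM at d0 and 2.24, 2.36, 0.381 and 0.331 RPKM at d22, so 2 of the d22 libraries were above 2 RPKM and the other 2 were just above the d0 values (adjusted p = 0.143). Selp, the adhesion molecule P-selectin, showed the same split, at 1.36, 2.23, 1.66 and 1.87 RPKM at d0 and 5.82, 6.95, 2.50 and 2.83 RPKM at d22 (adjusted p = 0.0990). Ephb4, a receptor of venous identity, differed by 0.082 with a 95% interval of ± 0.27. With the length and GC trend removed, 6 of 12 venous genes rose. Without d22 replicate 4 the count was 4.

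**Figure D2:**
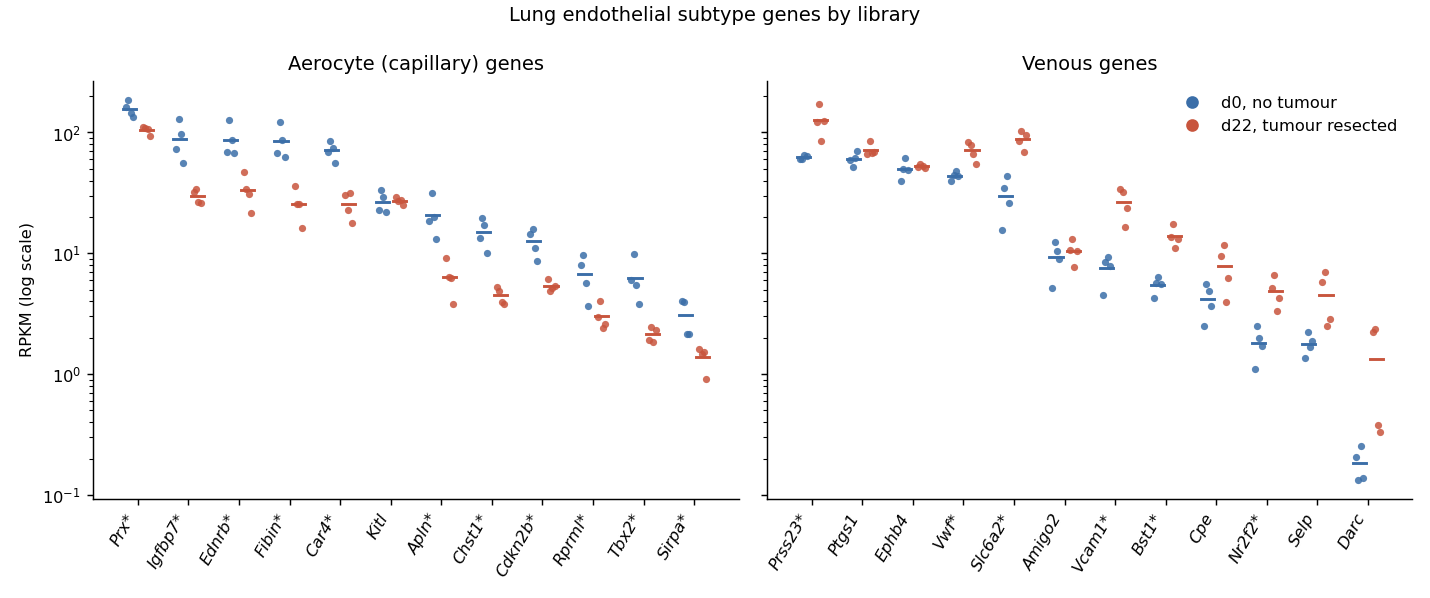
Levels of aerocyte and venous genes in each library. The axis is RPKM on a log scale, points are the 4 libraries of d0 and of d22, lines are their means, and an asterisk marks an adjusted p under 0.05; 11 of 12 aerocyte genes were lower and 6 of 12 venous genes were higher at d22.

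Of 12 general capillary genes, 3 rose and 0 fell, with a median of 0.19, and with the trend removed 1 rose. The shares over all entries were 8.09% rises and 7.1% falls, and 5.54% and 5.32% with the trend removed. Sema3c, a secreted guidance cue, stood at 50.8, 70.8, 79.5 and 70.2 RPKM at d0 and 137, 139, 149.7 and 122 RPKM at d22. No d22 library came below 122 RPKM and no d0 library above 79.5 RPKM, a change of 1.02 ± 0.23 (SE, adjusted p = 0.00846). Ptprb, the endothelial phosphatase VE-PTP, rose by 0.50 ± 0.10 (SE, adjusted p = 0.00560), but with the trend removed its change was 0.24 (adjusted p = 0.0842). Plvap and Gpihbp1, 2 defining genes of these capillaries, did not pass, at 156 to 487 RPKM at d0 and 123 to 195 RPKM at d22 for Plvap and 324 to 444 RPKM at d0 and 224 to 311 RPKM at d22 for Gpihbp1. Of 15 arterial genes, 2 rose (Eln and Ltbp4) and 2 fell (Unc5b and Dll4), with a median of 0.37, and with the trend removed 2 rose and 1 fell. Unc5b, a netrin receptor of arteries, stood at 7.64, 7.04, 7.98 and 6.37 RPKM at d0 and 5.97, 5.16, 4.28 and 4.62 RPKM at d22, with a change of -0.46 ± 0.11 (SE, adjusted p = 0.00888). Of 4 lymphatic genes tested, only Nrp2, a co-receptor for VEGF-C, was called, at 0.335 to 0.543 RPKM at d0 and 0.796 to 1.64 RPKM at d22, and with the trend removed it did not pass (adjusted p = 0.0920) while Ccl21a, a lymphatic chemokine, did (1.36, adjusted p = 0.0328). Reads of Ccl21a may be shared with near-identical copies of the gene.

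Among endothelial transcription factors, 5 of 22 rose and 2 fell (Tbx2 and Klf2), and with the trend removed 5 rose and 1 fell. Over all entries 8.09% rose and 7.1% fell, and 5.54% and 5.32% with the trend removed. Mef2c, a regulator of vascular development, stood at 3.28, 3.43, 3.07 and 3.00 RPKM at d0 and 5.50, 4.98, 4.83 and 4.92 RPKM at d22, with a change of 0.53 ± 0.094 (SE, adjusted p = 0.00212). Fli1, a factor of the ETS family, stood at 30.2, 27.1, 26.5 and 34.1 RPKM at d0 and 51.6, 60.8, 52.5 and 39.4 RPKM at d22, with a change of 0.76 ± 0.14 (SE, adjusted p = 0.00250). Sox7 stood at 36.9, 35.6, 40.2 and 35.4 RPKM at d0 and 52.3, 54.2, 55.6 and 74.1 RPKM at d22, with a change of 0.65 ± 0.12 (SE, adjusted p = 0.00294), and d22 replicate 6 was set apart above the other 3. Gata6 and Nr2f2 made up the 5 rises. Erg, a defining factor of endothelium, differed by -0.066 with a 95% interval of ± 0.24. Klf2, a factor induced by blood flow, stood at 61.6, 77.3, 62.7 and 70.5 RPKM at d0 and 48.6, 59.05, 33.6 and 25.7 RPKM at d22 (adjusted p = 0.0498), and its call held in 1 of the 8 fits that left out a library.

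Genes of peptide and lipid signals that act on vessels changed in both directions, with 2 rises and 5 falls among 20 tested, and 2 rises and 4 falls with the trend removed. Over all entries 8.09% rose and 7.1% fell, and 5.54% and 5.32% with the trend removed. Both rises of the list belong to 1 receptor, that for adrenomedullin. Calcrl, its membrane-spanning subunit, stood at 77.05, 75.9, 83.2 and 77.98 RPKM at d0 and 133, 125, 147 and 123 RPKM at d22, with a change of 0.74 ± 0.11 (SE, adjusted p = 0.000846). Ramp2, its accessory subunit, stood at 1555, 2134, 1491 and 1368 RPKM at d0 and 3616, 3083, 3712 and 5423 RPKM at d22, with a change of 1.26 ± 0.25 (SE, adjusted p = 0.00435). For both subunits the groups were separate, as their selection required, and Ramp2 was highest in d22 replicate 6. Adm, the ligand, was near 1 RPKM in both groups, at 0.744 to 1.09 RPKM at d0 and 0.545 to 1.00 RPKM at d22, and did not pass. The falls were Ednrb and Apln, given above, and Tbxa2r, Tbxas1 and Enho. Tbxa2r, the thromboxane receptor, stood at 23.9, 20.5, 17.8 and 15.5 RPKM at d0 and 10.003, 9.24, 7.08 and 9.01 RPKM at d22, with a change of -1.05 ± 0.20 (SE, adjusted p = 0.00335). Tbxas1, which makes thromboxane, fell by 0.50 on the log2 scale (SE 0.14, adjusted p = 0.0294). Enho, which encodes the secreted peptide adropin, stood at 18.6, 26.3, 23.4 and 15.04 RPKM at d0 and 7.40, 7.04, 7.00 and 5.61 RPKM at d22, with a change of -1.47 ± 0.27 (SE, adjusted p = 0.00245). Aplnr, the apelin receptor, and Edn1, the ligand of Ednrb, did not pass, with log2 fold changes of -0.26 and 0.37 and 95% intervals of ± 0.62 and ± 0.28.

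Ssr3 had the smallest p of all genes named. It encodes the gamma subunit of the translocon-associated protein complex, which helps proteins cross into the endoplasmic reticulum (GRCm38 chromosome 3, 65379655 to 65392623). It stood at 8.92, 9.20, 10.2 and 7.91 RPKM at d0 and 26.3, 27.3, 27.1 and 26.3 RPKM at d22. Values within each group lay close together, and the groups were far apart, and the log2 fold change came to 1.47 ± 0.10 (SE, adjusted p = 3.25e-07). Other parts of the same machinery went both ways. Of 22 genes of translocation, 2 rose (Ssr3 and Spcs3) and 5 fell, and with the trend removed 1 rose and 3 fell. The shares over all entries were 8.09% rises and 7.1% falls, and 5.54% and 5.32% with the trend removed. Ssr2, the beta subunit of the same complex, stood at 105, 106, 111 and 119.8 RPKM at d0 and 88.4, 74.6, 76.1 and 58.3 RPKM at d22, a change of -0.58 ± 0.14 (SE, adjusted p = 0.0107), and with the trend removed its change was -0.36 (adjusted p = 0.0654). Sec61b, a subunit of the translocation channel, stood at 68.5, 63.05, 56.8 and 57.01 RPKM at d0 and 46.4, 44.5, 37.6 and 34.2 RPKM at d22, with a change of -0.59 ± 0.12 (SE, adjusted p = 0.00390). Srp14, a protein of the signal recognition particle, fell by 0.56 on the log2 scale (SE 0.12, adjusted p = 0.00548). Ssr4 and Srp19 made up the 5 falls, and without d22 replicate 6 the count of falls was 3. Ssr1 and Sec61a1 did not pass, with log2 fold changes of 0.32 and -0.10.

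Single genes of protein folding in the endoplasmic reticulum were called, and fewer of them with the trend removed. Of 23 genes of folding and of the response to unfolded proteins, 5 rose and 1 fell (Atf4), and with the trend removed 2 rose. Over all entries 8.09% rose and 7.1% fell, and 5.54% and 5.32% with the trend removed. Hyou1, a large chaperone, stood at 4.08, 3.95, 4.31 and 4.21 RPKM at d0 and 6.68, 5.59, 8.08 and 6.08 RPKM at d22, with a change of 0.56 ± 0.14 (SE, adjusted p = 0.0149), and it was the only one of the 6 called in all 8 fits that left out a library. Hspa5, the main chaperone of this response, differed by 0.073 with a 95% interval of ± 0.37, and Ddit3, a factor of stress-induced cell death, by -0.16 with an interval of ± 0.27.

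Several other rises also had small p values. Mef2a, a transcription factor related to Mef2c, stood at 2.39, 1.97, 1.86 and 1.76 RPKM at d0 and 6.41, 6.73, 6.20 and 6.92 RPKM at d22, with a change of 1.34 ± 0.11 (SE, adjusted p = 7.82e-06). Yes1, a kinase of the Src family, stood at 2.34, 2.81, 2.76 and 2.60 RPKM at d0 and 6.10, 6.27, 5.84 and 6.19 RPKM at d22, with a change of 0.97 ± 0.092 (SE, adjusted p = 2.58e-05). Ythdf3, a reader of methylated adenosine in RNA, stood at 1.91, 2.16, 2.19 and 1.75 RPKM at d0 and 4.65, 5.11, 4.98 and 5.70 RPKM at d22, with a change of 1.02 ± 0.10 (SE, adjusted p = 2.87e-05). Each of these genes was at least 2-fold higher in its mean RPKM, by 3.29, 2.32 and 2.55 times. Zbtb1, a zinc finger repressor, stood at 1.35, 1.11, 1.27 and 0.840 RPKM at d0 and 4.73, 4.98, 4.02 and 3.32 RPKM at d22, with a change of 1.29 ± 0.12 (SE, adjusted p = 2.58e-05). H3f3a, one of the genes of histone H3.3, stood at 15.6, 16.8, 18.4 and 15.8 RPKM at d0 and 43.9, 55.9, 43.02 and 34.2 RPKM at d22, with a change of 1.34 ± 0.15 (SE, adjusted p = 0.000103). Its reads may be shared with copies of the gene, which the table does not resolve. All of these passed with the trend removed, with log2 fold changes from 0.66 (Ythdf3) to 1.58 (H3f3a).

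Among the largest rises, Prrg1, a membrane protein with a Gla domain, stood at 0.651 to 1.41 RPKM at d0 and 4.14 to 6.26 RPKM at d22, a change of 1.64 ± 0.22 (SE, adjusted p = 0.000385). Atp13a3, a transport ATPase, stood at 0.374 to 1.23 RPKM at d0 and 2.60 to 5.36 RPKM at d22, a change of 1.42 ± 0.30 (SE, adjusted p = 0.00526). Both were near or under 1 RPKM at d0, where the scale understates change. Sparcl1, a matricellular protein, stood at 3.23, 2.30, 2.46 and 2.11 RPKM at d0 and 6.50, 10.4, 8.42 and 9.01 RPKM at d22, with a change of 1.44 ± 0.17 (SE, adjusted p = 0.000217). Tmem45a and Samd5 rose by 1.47 and 1.34. Ctsh, a lysosomal protease, stood at 3.63, 8.53, 8.35 and 7.44 RPKM at d0 and 22.2, 26.5, 12.97 and 17.4 RPKM at d22, with a change of 1.39 ± 0.24 (SE, adjusted p = 0.00167). Xist, the RNA that silences the X chromosome, stood at 19.6, 25.995, 17.2 and 17.04 RPKM at d0 and 43.1, 36.5, 38.3 and 37.1 RPKM at d22, with a change of 0.94 ± 0.20 (SE, adjusted p = 0.00630) that became 0.51 with the trend removed (adjusted p = 0.0593). The RNAs 7330403C04Rik and 9330156P08Rik rose by 1.48 and 1.33.

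The 5 falls with the smallest p were in genes of different roles. Cdc25b, a phosphatase that activates cyclin-dependent kinases, stood at 6.41, 6.91, 6.31 and 5.32 RPKM at d0 and 3.14, 3.51, 2.83 and 2.68 RPKM at d22, with a change of -0.84 ± 0.11 (SE, adjusted p = 0.000385). Abcc3, an export pump for organic anions, stood at 5.93, 5.46, 5.02 and 5.09 RPKM at d0 and 2.45, 2.54, 2.12 and 2.00 RPKM at d22, with a change of -0.96 ± 0.14 (SE, adjusted p = 0.000626). Mrps16, a protein of the mitochondrial ribosome, stood at 45.3, 42.4, 40.7 and 40.2 RPKM at d0 and 24.4, 27.8, 22.8 and 20.3 RPKM at d22, with a change of -0.80 ± 0.11 (SE, adjusted p = 0.000634). The groups of all 3 were separate by more than their own ranges. Gprc5a, an orphan receptor, and Tceb2, which encodes elongin B, fell by 1.05 and 0.74. AW112010 stood at 97.3, 129.5, 96.4 and 59.3 RPKM at d0 and 45.6, 34.9, 35.9 and 23.8 RPKM at d22, with a change of -1.41 ± 0.31 (SE, adjusted p = 0.00704). Egflam, an extracellular matrix protein, stood at 13.5 to 25.9 RPKM at d0 and 4.90 to 8.98 RPKM at d22, and Map1lc3a, an autophagy protein, at 60.8 to 87.5 RPKM at d0 and 21.2 to 37.001 RPKM at d22. Tekt5, AI836003, Frrs1 and Ms4a8a fell by 1.43, 1.33, 1.32 and 1.25 on the log2 scale. Hopx, a gene of alveolar epithelium, stood at 22.6, 23.2, 24.6 and 16.5 RPKM at d0 and 12.2, 12.1, 11.03 and 9.59 RPKM at d22, a change of -0.88 ± 0.19 (SE, adjusted p = 0.00605), while the epithelial genes Ager and Sftpc stood at 14.8 to 32.8 RPKM at d0 and 5.74 to 18.9 RPKM at d22 and 352 to 494 RPKM at d0 and 179.7 to 616 RPKM at d22 and did not pass.

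Part of the splicing genes rose. Of 30 tested, 11 rose and 0 fell, with a median of 0.28, against 8.09% rises over all entries. With the trend removed 11 rose too, against 5.54%, though not all the same genes. The 11 with the trend kept were Srsf1, Srsf10, Srsf11, Tra2b, Rbm25, Rbm39, Luc7l2, Luc7l3, Clk1, Clk4 and Hnrnpa2b1, of which 9 passed in all 8 fits that left out a library. With the trend removed Srsf1, Srsf10 and Clk1 no longer passed, and Srsf2, Srrm2 and Ddx5 did. Rbm39, a splicing co-activator, stood at 1.95, 2.71, 2.10 and 1.87 RPKM at d0 and 4.40, 4.87, 4.33 and 5.49 RPKM at d22, with a change of 0.87 ± 0.14 (SE, adjusted p = 0.00110). Rbm25, a regulator of splice site choice, stood at 3.00, 3.03, 2.91 and 3.33 RPKM at d0 and 5.82, 5.99, 6.07 and 6.92 RPKM at d22, with a change of 0.82 ± 0.14 (SE, adjusted p = 0.00175). Srsf11, a protein rich in serine and arginine, stood at 7.24, 6.87, 6.05 and 6.38 RPKM at d0 and 10.7, 10.5, 10.1 and 13.98 RPKM at d22, with a change of 0.68 ± 0.12 (SE, adjusted p = 0.00207). Luc7l3, a homologue of a yeast U1 component, stood at 6.12, 5.77, 7.78 and 6.34 RPKM at d0 and 12.2, 12.5, 12.7 and 16.2 RPKM at d22, with a change of 0.94 ± 0.18 (SE, adjusted p = 0.00327). All d22 values lay above all d0 values in these 4 genes, as their selection required, and d22 replicate 6 was the highest in each.

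Many subunits of the respiratory chain encoded in the nucleus fell. Of 74 tested, 31 fell and 0 rose, with a median of -0.35, against 7.1% falls over all entries and 17.7% in the shortest length class. These genes are short, with a median length of 655 bases. The count was 15 with the trend removed (where 5.32% of all entries fell), against 32 of the same genes with the trend kept, 17 after quantile normalization and 13 without d22 replicate 6. Ndufb7, a subunit of complex I, stood at 193, 184, 185 and 182 RPKM at d0 and 116, 120.0, 119 and 93.98 RPKM at d22, with a change of -0.73 ± 0.14 (SE, adjusted p = 0.00322). Ndufs8, another subunit of complex I, stood at 114, 98.6, 118 and 111 RPKM at d0 and 76.01, 75.8, 71.01 and 54.5 RPKM at d22, with a change of -0.67 ± 0.12 (SE, adjusted p = 0.00192). Ndufb10 and Ndufb9 fell by 0.64 and 0.60, and these 4 passed with the trend removed as well. In each of the 4, d22 replicate 6, the library lowest for short transcripts, was the lowest. Falls were also found in complex II (Sdhb, -0.51), complex III (Uqcrq, -0.70), complex IV (Cox7a2, -0.52) and ATP synthase (Atp5o, -0.54), of which only Uqcrq passed with the trend removed.

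Subunits encoded by the mitochondrial genome went the other way where they were measured. The table lists 7 of the 13 such genes, of which 4 could be tested and 3 rose. ND4L, a subunit of complex I, stood at 103, 201, 140.0 and 102 RPKM at d0 and 433, 506, 427 and 444 RPKM at d22, with a change of 1.77 ± 0.23 (SE, adjusted p = 0.000385). ND5 stood at 73.7, 138, 106 and 74.3 RPKM at d0 and 187, 201, 182 and 181 RPKM at d22, with a change of 0.98 ± 0.20 (SE, adjusted p = 0.00463), and ND6 at 68.3, 124, 90.2 and 63.3 RPKM at d0 and 151, 157, 154 and 157 RPKM at d22, with a change of 0.88 ± 0.21 (SE, adjusted p = 0.00991). The d22 libraries lay close together for all 3 genes and, as their selection required, above every d0 library. COX1 stood at 799, 1204, 852 and 933 RPKM at d0 and 1349.8, 1167, 1311 and 1111 RPKM at d22, did not pass (adjusted p = 0.0838) and overlapped between the groups. ND3, COX2 and COX3 were listed under 1 RPKM in all 8 libraries, so these entries do not give the abundance of mitochondrial RNA as a whole. The mitochondrial entries had no annotated length here and were outside the fit with the trend removed.

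Proteasome genes fell in 13 of 33 cases with 0 rises and a median of -0.30, and 12 of 33 fell with the trend removed. The shares of falls over all entries were 7.1% and 5.32%. The number was 8 without d0 replicate 1 or 4, 7 without d22 replicate 6 and 8 after quantile normalization. Psmb5, a catalytic subunit, stood at 40.3, 36.6, 36.3 and 35.6 RPKM at d0 and 27.8, 27.03, 21.6 and 20.3 RPKM at d22, with a change of -0.61 ± 0.12 (SE, adjusted p = 0.00466). Psmc4 and Psmc5, ATPases of the regulatory particle, fell by 0.45 and 0.47, and the catalytic subunit Psmb6 by 0.50, which did not pass with the trend removed (adjusted p = 0.0890). Ribosomal protein genes gave 7 falls and 1 rise among 75, near the share over all entries, and 0 falls and 2 rises with the trend removed. Their falls came to 4 without d0 replicate 1, d22 replicate 1 or d22 replicate 5, 2 without d0 replicate 3, 1 without d0 replicate 4 and 0 without d22 replicate 6.

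**Figure D3:**
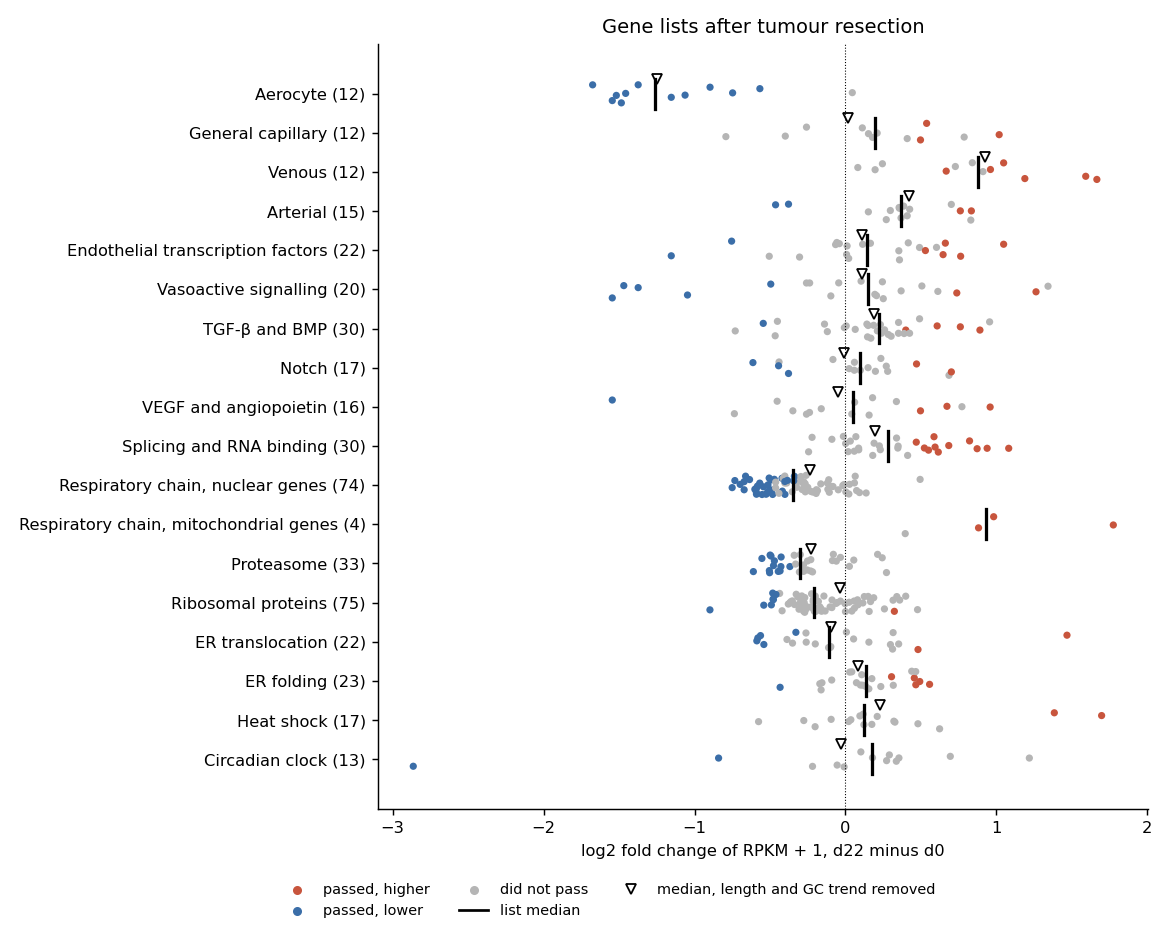
Fold changes in 18 gene lists. Each point is a gene, placed by its log2 fold change of RPKM + 1 (d22 minus d0) and coloured by its call, the number of tested genes stands in brackets, bars are list medians and open triangles are medians with the length and GC trend removed; aerocyte genes have a median of -1.26, venous genes 0.88 and nuclear genes of the respiratory chain -0.35.

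The inducible HSP70 genes rose. Of 17 chaperone genes, 2 rose, Hspa1a and Hspa1b, neighbouring copies that encode the same chaperone, and the same 2 rose with the trend removed. The shares of rises over all entries were 8.09% and 5.54%. Because the copies are nearly identical, reads of one may have been assigned to the other. Their promoters are shown because both genes rose and both windows hold a match to the heat shock element, the short repeat that heat shock factors bind. The sequences are from RefSeq (build GRCm38.p6, minus strand), run from 250 bases before to 50 bases after the start, and are identical at 296 of 300 bases. Capitals mark a match to GAANNTTC (N is any base), which begins 104 bases before the start in both. TTCNNGAA was searched too, both on either strand, and overlapping matches were allowed.
Hspa1a promoter, chr17:34972107-34972406: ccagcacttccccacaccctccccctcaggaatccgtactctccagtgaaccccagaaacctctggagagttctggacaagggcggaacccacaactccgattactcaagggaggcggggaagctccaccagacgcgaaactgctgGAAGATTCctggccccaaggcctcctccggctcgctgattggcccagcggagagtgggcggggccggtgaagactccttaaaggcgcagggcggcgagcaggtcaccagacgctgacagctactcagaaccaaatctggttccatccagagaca
Hspa1b promoter, chr17:34959189-34959488: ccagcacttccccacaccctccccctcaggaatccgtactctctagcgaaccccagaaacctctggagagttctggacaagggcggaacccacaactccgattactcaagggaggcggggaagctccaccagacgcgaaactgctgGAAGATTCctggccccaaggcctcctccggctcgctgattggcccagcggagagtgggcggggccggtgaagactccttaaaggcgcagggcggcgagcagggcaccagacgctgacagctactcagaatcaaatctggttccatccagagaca

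Either pattern was found in 15.1% of all 32851 promoter windows of the same length, and in at least 1 window of 9 of the 12 chaperone genes that had one. The window share and the gene count are not on the same basis, because several of these genes have more than 1 window. The windows of Hspe1 and Hspd1 also overlap. Hspa1b stood at 3.01, 2.47, 2.51 and 2.19 RPKM at d0 and 9.31, 9.93, 6.07 and 8.06 RPKM at d22, with a change of 1.38 ± 0.22 (SE, adjusted p = 0.00129). Hspa1a stood at 49.8, 29.2, 28.1 and 31.9 RPKM at d0 and 107, 159, 57.8 and 159 RPKM at d22, with a change of 1.70 ± 0.46 (SE, adjusted p = 0.0202), and its call held in 4 of the 8 fits that left out a library. Both genes were separate between the groups and lowest at d22 in replicate 5. The other 7 genes with the pattern in a window (Hsph1, Dnaja1, Hspb1, Hspe1, Hspd1, Bag3 and Chordc1) did not pass. Hsph1 and Bag3 had log2 fold changes of 0.62 and -0.10 and 95% intervals of ± 0.72 and ± 0.38. Hsf1, the factor itself, differed by 0.021 with an interval of ± 0.25.

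Nr1d1 had the largest fall of all genes named. It encodes REV-ERB alpha, a repressor of the circadian clock (GRCm38 chromosome 11, 98767932 to 98775333). It stood at 13.6, 53.8, 25.1 and 47.9 RPKM at d0 and 3.36, 3.79, 2.57 and 3.89 RPKM at d22. The d22 libraries were within 2.57 to 3.89 RPKM, under the lowest of the widely spread d0 libraries, and the change was -2.86 ± 0.41 (SE, adjusted p = 0.000669). Nr1d2, its paralogue, stood at 1.37, 2.62, 0.903 and 1.27 RPKM at d0 and 0.379, 0.406, 0.249 and 0.491 RPKM at d22, with a change of -0.84 ± 0.26 (SE, adjusted p = 0.0368) that held in 1 of the 8 fits that left out a library. Of 13 clock genes tested, these 2 fell and 0 rose, and with the trend removed 2 fell and 1 rose (Gm129, also named Ciart). The shares over all entries were 7.1% falls and 8.09% rises, and 5.32% and 5.54% with the trend removed. Arntl, the activator that NR1D1 represses, stood at 7.61, 5.97, 7.37 and 5.40 RPKM at d0 and 9.60, 12.2, 10.5 and 12.7 RPKM at d22, separate between the groups and higher at d22, but it did not pass (log2 fold change 0.69, SE 0.24, adjusted p = 0.0602). Dbp and Per3 did not pass either, at 0.982 to 2.24 RPKM at d0 and 0.992 to 1.56 RPKM at d22 for Dbp and 0.243 to 0.570 RPKM at d0 and 0.236 to 0.569 RPKM at d22 for Per3. The hour of collection is not given in the sources used here, so the time of day and the treatment cannot be told apart.

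The Nr1d1 promoter is shown because this gene had the largest change of those named. In the window from RefSeq (build GRCm38.p6, minus strand), none of the patterns searched on both strands was found, so it carries no capitals. They were the E-box CACGTG, the D-box TTATGTAA and the ROR element AAGGTCA or TAGGTCA, and 7.15%, 0.94% and 7.16% of all windows held them.
Nr1d1 promoter, chr11:98775328-98775627: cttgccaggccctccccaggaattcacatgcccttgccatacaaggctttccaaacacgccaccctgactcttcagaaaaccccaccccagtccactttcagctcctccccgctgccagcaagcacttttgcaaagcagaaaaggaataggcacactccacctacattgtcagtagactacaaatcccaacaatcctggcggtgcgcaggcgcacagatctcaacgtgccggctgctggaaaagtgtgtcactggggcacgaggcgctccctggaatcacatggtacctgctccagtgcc
Of 10 clock genes with a window, 2 held an E-box (Per1 and Cry1), 1 a D-box (Per3) and 2 a ROR element (Arntl and Nfil3), and the window of Nr1d2 held none of them. Some of these genes have more than 1 window, so these counts are not on the same basis as the shares of windows.

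Signalling pathways of the vessel wall changed in single genes. Over all entries 8.09% rose and 7.1% fell, and 5.54% and 5.32% with the trend removed. In the TGF-beta and BMP pathway, 4 of 30 genes rose and 1 fell (Id1), with 5 rises and 0 falls when the trend was removed (Smad2, Smad3, Smad7, Skil and Ltbp4). Bmpr2, the type II BMP receptor, stood at 45.8, 51.7, 57.6 and 43.6 RPKM at d0 and 75.9, 81.7, 70.2 and 75.7 RPKM at d22, with a change of 0.61 ± 0.12 (SE, adjusted p = 0.00361). With the trend removed its change was 0.12 (adjusted p = 0.345). Skil, a brake on this pathway and one of its targets, stood at 13.9, 18.9, 18.4 and 12.6 RPKM at d0 and 33.2, 30.2, 30.5 and 26.5 RPKM at d22, with a change of 0.89 ± 0.20 (SE, adjusted p = 0.00793). The receptors Eng, Acvrl1 and Tgfbr2 did not pass, with log2 fold changes of 0.21, -0.14 and 0.30. Lrg1, a secreted modulator of TGF-beta signalling, stood at 51.98, 33.2, 29.4 and 37.04 RPKM at d0 and 67.2, 112, 57.6 and 64.8 RPKM at d22, so that each d22 library was above each d0 library, but the fit did not call it (log2 fold change 0.95, SE 0.48, adjusted p = 0.193).

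The same shares, 8.09% rises and 7.1% falls (5.54% and 5.32% with the trend removed), stand beside the next lists. In the Notch pathway 2 of 17 genes rose (Jag1 and Maml2) and 3 fell (2 and 1 with the trend removed), among them Mfng, a glycosyltransferase that modifies Notch. It stood at 102, 116, 124 and 117 RPKM at d0 and 74.1, 72.1, 83.9 and 69.4 RPKM at d22, with a change of -0.61 ± 0.13 (SE, adjusted p = 0.00466). In the VEGF and angiopoietin pathway 3 of 16 genes rose (Vegfc, Nrp2 and Ptprb) and Apln fell, against 1 rise and 3 falls with the trend removed. The receptors Kdr and Tek did not pass (-0.45 and 0.18), though Kdr did with the trend removed (adjusted p = 0.0162). Robo4, an endothelial guidance receptor, stood at 151, 131, 144 and 147 RPKM at d0 and 101, 98.99, 102 and 86.6 RPKM at d22, with a change of -0.56 ± 0.13 (SE, adjusted p = 0.00928). Rela, the p65 subunit of NF-kappaB, was the 1 gene called of 14 in its list and stood at 36.7, 37.8, 37.9 and 39.7 RPKM at d0 and 27.5, 28.2, 29.1 and 24.9 RPKM at d22, a change of -0.46 ± 0.092 (SE, adjusted p = 0.00419) that did not pass with the trend removed (adjusted p = 0.0992). Klf9, a glucocorticoid target, stood at 15.3, 17.3, 16.5 and 15 RPKM at d0 and 22.3, 28.6, 22.2 and 22.5 RPKM at d22, with a change of 0.54 ± 0.13 (SE, adjusted p = 0.0105) that did not pass with the trend removed either (adjusted p = 0.0732).

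Matrix and metabolic genes changed in single members. The shares over all entries were 8.09% rises and 7.1% falls, and 5.54% and 5.32% with the trend removed. Of 18 matricellular genes, 3 rose and 1 fell (2 and 1 with the trend removed), and besides Sparcl1 and Igfbp7 they included Thbs1, an inhibitor of angiogenesis, at 3.56, 3.51, 3.63 and 3.42 RPKM at d0 and 5.96, 7.42, 5.78 and 5.35 RPKM at d22 (log2 fold change 0.65, SE 0.16, adjusted p = 0.0155). Among 13 integrins and their partners, 2 rose and 2 fell (1 and 1 with the trend removed), and Itga3, a laminin receptor subunit, stood at 39.7, 47.96, 51.3 and 36.96 RPKM at d0 and 26.6, 24.4, 25.2 and 23.4 RPKM at d22 (log2 fold change -0.79, SE 0.17, adjusted p = 0.00695). Of 20 genes of fatty acid handling, 2 rose and 1 fell (2 and 0 with the trend removed). Cd36, a fatty acid transporter of capillaries, stood at 131, 150.1, 117 and 116 RPKM at d0 and 232, 309, 296 and 291 RPKM at d22, with a change of 1.13 ± 0.19 (SE, adjusted p = 0.00178). Acsl4, which activates polyunsaturated fatty acids, stood at 3.81, 4.39, 4.62 and 3.99 RPKM at d0 and 7.33, 8.90, 7.82 and 7.11 RPKM at d22, with a change of 0.76 ± 0.12 (SE, adjusted p = 0.00130). Hif1a, the oxygen-regulated transcription factor, stood at 1.64, 2.51, 1.85 and 1.54 RPKM at d0 and 5.52, 5.44, 3.88 and 3.98 RPKM at d22, with a change of 0.98 ± 0.13 (SE, adjusted p = 0.000385). It was the 1 gene called of 21 in the list of hypoxia and glycolysis, and it passed with the trend removed (adjusted p = 0.00185).

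Of the chemokine, interferon and mitotic lists, the interferon list held the 2 calls at d22. Over all entries 8.09% rose, and 5.54% with the trend removed. None of 16 chemokine and cytokine genes was called by limma, with a median of 0.55, and 3 had an unadjusted p under 0.05. Ccl21a passed with the trend removed. Of 19 interferon genes, 2 rose, Ifit2 and Ifih1, the latter at 9.87 to 11.4 RPKM at d0 and 13.4 to 15.9 RPKM at d22, and neither passed with the trend removed. None of 16 mitotic genes was called by limma, with a median of 0.55, and 1 had an unadjusted p under 0.05. With the trend removed the count was 0 as well. Top2a, the topoisomerase of dividing cells, stood at 0.1698, 0.0817, 0.155 and 0.0597 RPKM at d0 and 2.70, 0.625, 0.950 and 0.327 RPKM at d22 (adjusted p = 0.165), a spread of several fold among the d22 libraries. Prc1, a gene of cytokinesis, stood at 0.191, 0.125, 0.152 and 0.191 RPKM at d0 and 3.45, 1.02, 1.19 and 0.461 RPKM at d22 (adjusted p = 0.173), and Rrm2, a gene of nucleotide synthesis, at 0.316, 0.321, 0.255 and 0.171 RPKM at d0 and 3.50, 1.11, 1.63 and 0.497 RPKM at d22 (adjusted p = 0.128). Top2a and Prc1 were picked for the smallest p of the mitotic list and Rrm2 for that of the DNA replication list. Their separation between the groups is therefore no further result. In all 3 genes d22 replicate 1 was far above the other 3.

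The remaining lists gave 0 to 2 calls in either direction. Over all entries 8.09% rose and 7.1% fell, and 5.54% and 5.32% with the trend removed. Junction genes gave 2 rises among 18, Tjp1 and Mllt4, which link junctions to actin, and 0 with the trend removed. Leukocyte adhesion gave 2 rises among 13 (Vcam1 and Cd44) and 1 fall (Icam2), and with the trend removed only Vcam1 passed. Genes of the N6-methyladenosine mark gave 2 rises among 13, Ythdf3 and Ythdc2, both readers of the mark, of which only Ythdf3 passed with the trend removed. The IL-6 and STAT3 list gave 1 rise among 16 (Jak2), the antigen presentation list 1 fall among 13 (Psmb10), the immediate early list 1 fall among 23 (Klf2) and the cholesterol list 1 fall among 16 (Mvk). None of these 4 passed with the trend removed (adjusted p = 0.187, 0.0940, 0.0555 and 0.312), and Stard4 of the cholesterol list then rose (0.45, adjusted p = 0.0472). Mesenchymal transition gave 1 rise among 9 (Zeb2) and amino acid transport 1 among 9 (Slc38a2). With the trend removed Zeb2 and Tagln passed in the former and 0 genes in the latter. By limma 0 of 17 DNA replication genes and 0 of 9 collagens and laminins were called, and 1 and 1 of them had an unadjusted p under 0.05. With the trend removed Lamb2, a laminin chain, passed (0.65, adjusted p = 0.0208) and 0 DNA replication genes.

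Whether these d22 values differed from those with the primary tumour in place was tested directly. Between d22 and d15, 286 entries were higher (2%) and 151 lower (1.06%) at d22. Over the fits that left out a library, rises ran from 80 to 281, and each of d15 replicates 4 and 6 and d22 replicates 1, 4, 5 and 6 moved them by more than 1.5 times. Falls ran from 41 to 213, and each of d15 replicates 4 and 6 and d22 replicates 1, 5 and 6 moved them by more than 1.5 times. This comparison shares the d22 libraries with the main one. The comparison of d15 with d0, which shares the d0 libraries with the main one, gave 87 rises (0.608%) and 82 falls (0.573%).

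The genes with the smallest p were among those that differed from d15. Ssr3 was at 13.3 ± 1.22 RPKM (SD, n = 4) at d15, and d22 was higher by 0.96 ± 0.10 (SE, adjusted p = 7.70e-05). Mef2a was at 2.49 ± 0.290 RPKM at d15, and the difference was 1.12 ± 0.11 (SE, adjusted p = 7.70e-05). Nr1d1 was at 109.6 ± 46.1 RPKM at d15, and the difference of d22 from it was -4.57 ± 0.41 (SE, adjusted p = 5.29e-05). The clock gene Arntl was at 3.75 ± 1.90 RPKM at d15, and d22 was higher by 1.44 ± 0.24 (SE, adjusted p = 0.00429). Nr1d2, Dbp, Per2 and Per3 were lower at d22 than at d15, with differences of -2.19, -1.91, -1.03 and -0.96, so 5 clock genes fell and 1 rose in that comparison. ND4L, Prrg1, H3f3a, Sparcl1, Cd36 and Sema3c were higher at d22 than at d15, by 1.27, 1.42, 0.91, 0.66, 0.76 and 0.89. Calcrl, Hif1a, Luc7l3, Yes1, Zbtb1 and Ythdf3 were higher as well, and Cdc25b, Abcc3 and Tceb2 lower. Lrg1 was at 308 ± 105 RPKM at d15, and the difference of d22 from it was -1.99 ± 0.48 (SE, adjusted p = 0.0352).

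No aerocyte or venous gene was called between d22 and d15. By limma 0 of 12 genes passed in each list, with medians of -0.19 and -0.14, and 0 aerocyte and 3 venous genes had an unadjusted p under 0.05. Car4 was at 36.4 ± 5.47 RPKM at d15, a difference of -0.51 with a 95% interval of ± 0.57. Apln was at 5.65 ± 1.45 RPKM at d15, a difference of 0.13 with an interval of ± 0.74. Vcam1 was at 16.9 ± 4.07 RPKM at d15, a difference of 0.59 with an interval of ± 0.73. Slc6a2 was at 86.4 ± 6.45 RPKM at d15, a difference of 0.007 with an interval of ± 0.77. Against d0, d15 itself gave 2 falls among the aerocyte genes (Apln and Chst1) and 4 rises among the venous genes, with medians of -1.01 and 0.84, from the same d0 libraries.

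The d36 libraries came from mice with metastases. Replicate 1 of this group carries an earlier day in its title and column header and was placed by its time point label. Between d36 and d22, 1249 entries were higher (8.73%) and 439 lower (3.07%) at d36. Leaving out a library gave 712 to 2291 rises and 160 to 1480 falls, the highest both without d36 replicate 9. Without d36 replicate 1 the counts were 891 and 341. Rises changed by more than 1.5 times also without d22 replicate 6 or d36 replicates 7 or 8, and falls also without d22 replicates 1, 5 or 6 or d36 replicates 7 or 8. This comparison shares the d22 libraries with that against d0, with opposite sign, so a gene high or low at d22 tends to show opposite differences in the 2 comparisons. Nr1d1 was at 56.6 ± 32.03 RPKM at d36, higher than at d22 by 3.55 ± 0.41 (SE, adjusted p = 0.000189). Cdc25b was at 6.76 ± 0.740 RPKM, higher by 0.94 ± 0.11 (SE, adjusted p = 0.000189), and Gprc5a and Abcc3 were higher by 1.29 and 0.92. Of the aerocyte genes, Chst1, Igfbp7 and Ednrb were higher at d36 than at d22, by 1.04, 1.20 and 1.02. Ssr3, at 36.4 ± 2.79 RPKM, and Hif1a, at 7.35 ± 0.622 RPKM, were higher still, by 0.43 and 0.56. Ctsh, Bst1, Ptprb and Rbm25 were lower than at d22, with differences of -0.96, -0.75, -0.38 and -0.49.

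**Figure D4:**
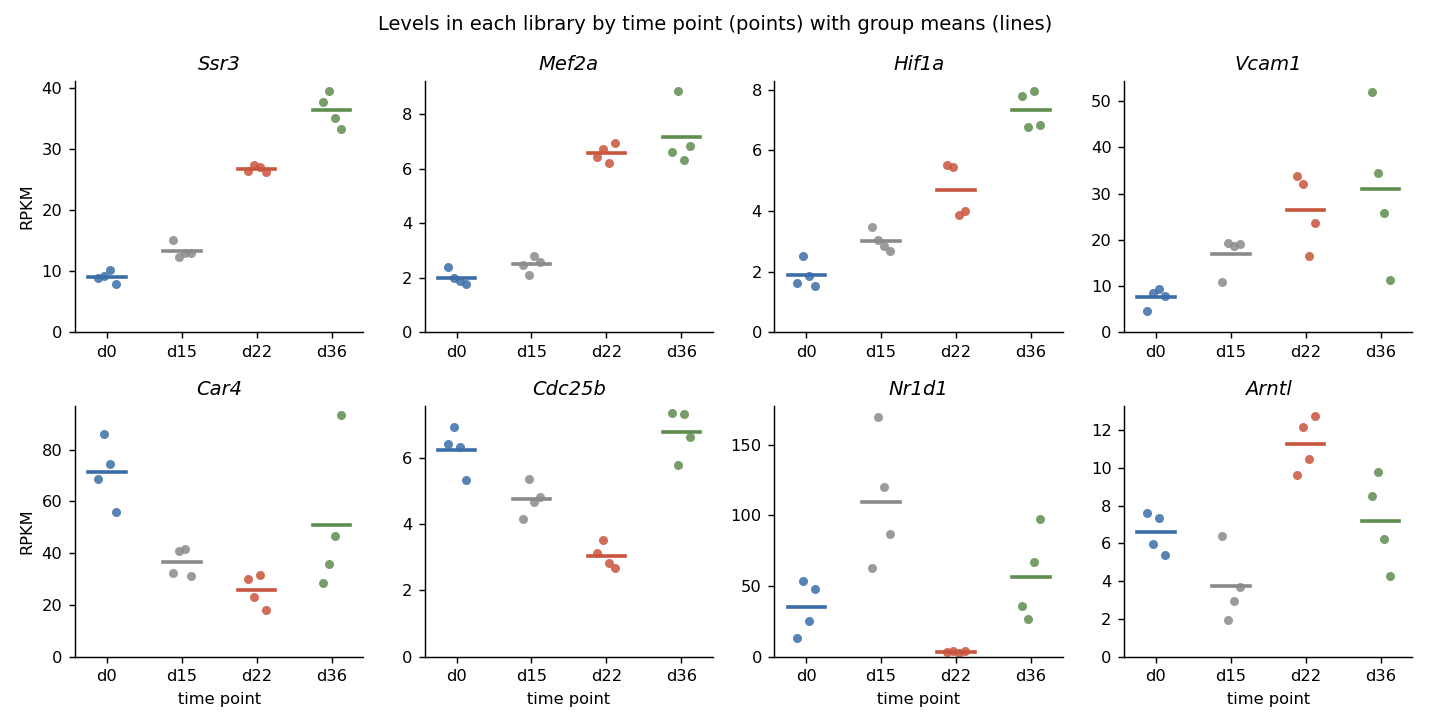
Levels of 8 genes in every library by time point. The axis is RPKM from 0, points are the 4 libraries of each time point and lines are means; Ssr3, Mef2a and Hif1a are higher at d22 than at d0 and d15, Cdc25b and Nr1d1 are lowest at d22, and Car4 and Vcam1 differ between d22 and d0.

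The authors' deposited table also gives a fold change and an adjusted p for d22, without naming the comparison. Its values lay closer to the log2 ratio of d22 to d0 than to that of d22 to d15, with mean absolute differences of 0.132 and 0.272. At an adjusted p under 0.05, 2695 of 16382 entries with an adjusted p were higher and 1504 lower in the authors' deposited table. Of the 2173 entries called here, 2113 had the same sign and an adjusted p under 0.05 in the authors' deposited table. Those values come from the same series of libraries, so the match is not independent support. For Ssr3 the authors' deposited table gives 1.57 (adjusted p = 2.45e-25), for Car4 -1.41 and for Vcam1 1.69.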

How the data were processed

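RNA of endothelial cells sorted from mouse lung was extracted (PicoPure) and 10 ng of total RNA per library was amplified with a SMARTer Ultra Low kit, per the labels' protocols. The series' design text gives 4 independent biological replicates per time point. The authors deposited 1 table of RPKM values with, per the file headers, log2 fold changes and adjusted p-values for each later time point. The submitters' processing notes name STAR, DESeq2 and mm10, with no versions or roles. The lengths behind the RPKM values are not given in the sources used here. No column was left unmapped. The d36 library with replicate number 1, whose title and column header give an earlier day, was placed by its time point label.

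Values were tested as log2(RPKM + 1) with limma 3.58.1 (trended empirical Bayes, R 4.3.3), on entries that reached 1 RPKM in 4 or more of 16 libraries, in 1 fit of the 4 groups, with Benjamini-Hochberg adjustment over all 14303 of 17715 entries tested. The script was tested on simulated data. Depth is not in the table. It was recovered from low values as the read number that 1 step of RPKM is worth. Of 4127 low entries, 518 came out whole in all 8 libraries (within 0.1 read, up to 40 reads), against 5 with wrong depths. This check bears on relative depth only. The absolute scale rests on 56 genes and on GENCODE M21 transcript lengths, so it is approximate. Since most entries did not come out whole, no count test was run. The trend with transcript length and GC content (GENCODE M21 transcripts, GRCm38) was removed from each library by lowess (span 0.3), on entries with an annotated length. The other settings were a pseudocount of 0.1, no filter, at least 5 RPKM, fewer groups in the fit, median centring, quantile normalization, robust empirical Bayes, array weights, a replicate block and leaving out each library.

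Genes were named from symbols that passed in all 8 fits leaving out a d0 or d22 library, averaged 2 RPKM or more in d0 or d22 and did not overlap between the groups. They were the 15 largest rises and falls, the 5 of each with the smallest p, up to 4 per gene list by p, and Lrg1. Other list members are named to account for a list and were chosen after their values were seen. The comparison, the members and the 52 gene lists were chosen with earlier results of these data known. Promoter windows are RefSeq sequences of GRCm38.p6.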

Additional observations from a re-analysis of the deposited data

Results flagged for a closer look

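For the 124 genes examined by name, each group of 4 libraries was checked for a value set apart from the other 3 by Dixon's criterion, which chance meets in about 1 of 20 groups. It was met in 15 of 248 groups. Of those in the d22 group, replicate 6 held 7. Sox7 was at 74.06 RPKM there against 52.3 to 55.62 RPKM in the other libraries, Srsf11 at 13.98 against 10.12 to 10.69 RPKM, and Luc7l3 at 16.24 against 12.17 to 12.69 RPKM. Ndufb7 was lower in that library, at 93.98 against 115.5 to 120.0 RPKM, as were Psmc4, at 81.31 against 102.4 to 105.2 RPKM, and Psmc5, at 52.08 against 66.15 to 68.89 RPKM. The erythroid gene Hba-a2 was at 1.931 against 0.1366 to 0.2333 RPKM in the same library.

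At d22, Klf9 was at 28.6 RPKM in replicate 4 against 22.23 to 22.48 RPKM, and the leukocyte gene Lcp1 at 37.23 RPKM in replicate 5 against 28.98 to 30.06 RPKM.

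In the d0 group, replicate 2 held Ccl21a at 1.371 RPKM against 0.5438 to 0.6133 RPKM, Psmb10 at 236.8 against 297.2 to 304.3 RPKM, and the B cell gene Cd79a at 1.335 against 0.6486 to 0.6957 RPKM. Replicate 1 held Osmr at 10.86 against 5.63 to 6.259 RPKM. Replicate 3 held Ndufb10 at 115.9 against 104.6 to 106.0 RPKM and Lcp1 at 31.36 against 35.35 to 35.81 RPKM.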

How the results depend on the processing

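None of the 96 named calls changed sign in a setting that gave it a value, and the other calls were not followed one by one. Many of the 96 were named because they passed in all 8 fits without a d0 or d22 library and did not overlap. How well they held is therefore partly fixed by that choice and does not stand for all calls. Of all calls, 593 of 1157 rises and 379 of 1016 falls passed in all 8 fits. Of the 96, 0 were lost with d0 and d22 only, without d36 or with array weights, 2 with a pseudocount of 0.1 or robust empirical Bayes, 3 with median centring, 5 without a filter, 8 with quantile normalization and 6 to 12 without a single library. None of 83 was lost at 5 RPKM, and 23 of 91 were lost once the length and GC trend was taken out.

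The 1157 rises over d0 became 602 at 5 RPKM, where fewer entries were tested, 1785 with d0 and d22 only, 2198 with array weights and 549 with the trend removed, and 720 to 1030 without a single library. The 1016 falls became 1747 with array weights and 528 with the trend removed, and 446 to 761 without a single library. Against d15, the 286 rises became 811 without the d36 libraries, 160 with median centring, and 80 to 281 without a single library, and the 151 falls became 384, 232, and 41 to 213. From d22 to d36 the 1249 rises ran from 712 to 2291 without a single library, and the 439 falls became 921 with median centring, 899 with quantile normalization and 160 to 1480 without a single library. The causes of these moves were not tested.

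Replicate numbers did not pair the libraries: d0 and d22 share 2 numbers, whose deviations correlated at -0.049 and 0.044 across genes. With the replicate block 310 entries fell against d0, 477 rose and 258 fell against d15, 485 rose and 17 fell from d22 to d36, and 25 of 96 named calls were lost. Rises over d0 numbered 983 with the block. Depth differed by at most 1.18 times between the d0 and d22 libraries.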
